A study of Mus musculus with 3 samples.

Results

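Astrocytes clear glutamate and potassium released by neurons, regulate water and cell volume, and share ions and metabolites through gap junctions. Levels of 8 genes that carry out these tasks were read in single cells of the injured mouse brain: Slc1a2, Slc1a3, Glul, Kcnj10, Aqp4, Mlc1, Gja1 and Gjb6. They were chosen by name for their function, and all 8 were found among the 55357 genes of each count matrix. The tissue was left perilesional brain of male C57BL/6 mice aged 6 to 8 weeks. The sham library came from the control group, the TBI+PBS library from mice with traumatic brain injury (TBI) given phosphate-buffered saline for 3 days, and the TBI+IL-25 library from injured mice given interleukin-25. The labels state a dose of 1 µg per mouse, first given no later than 30 minutes from injury and then daily. No allele or transgene is named, and the number of animals behind each library is not stated. Each group had 1 library, so no test between groups was possible and every difference below is one between libraries.

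Slc1a2 (GLT-1) and Slc1a3 (GLAST) take up synaptic glutamate, and glutamine synthetase, encoded by Glul, turns it into glutamine that neurons reuse. Kcnj10 encodes Kir4.1, the inward rectifier through which astrocytes buffer potassium. Aqp4, the main water channel of the brain, sits in the endfeet around vessels, where Mlc1 takes part in volume regulation. Gja1 (connexin 43) and Gjb6 (connexin 30) form the gap junctions that couple astrocytes into a network.

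The matrices held 8939 barcodes and 39536447 unique molecular identifiers (UMIs) for sham, 10643 and 58148289 for TBI+PBS, and 14222 and 61372408 for TBI+IL-25. After filtering, 8710, 10299 and 13532 cells remained. The TBI+IL-25 library stood apart in ways that cannot be told apart from its treatment. Its counts came from another Cell Ranger version, ribosomal RNA took 0.793% of UMIs against 0.0374% in sham and 0.0461% in TBI+PBS, and haemoglobin stood at 0.147 CPM (UMIs scaled to a common total) against 98.9 and 111. Pairs of libraries shared between 24 and 39 barcodes.

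Astrocyte-like cells numbered 3281 in sham (37.7% of kept cells), 4520 with TBI+PBS (43.9%) and 6685 with TBI+IL-25 (49.4%). They formed 7 of 26 clusters, and all 14 astrocyte markers were present in each of the 7. The 8 genes were neither markers nor among the genes used for clustering. A CPM value here is a gene's UMIs summed over the astrocyte-like cells of a library, scaled to 1000000 UMIs of those cells. All intervals are 95% intervals and cover counting error only.

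The astrocyte-like cells of both injured libraries carried the usual signs of reactivity. Gfap, the astrocyte intermediate filament, stood at 67.7 CPM in sham, 1452 with TBI+PBS and 1163 with TBI+IL-25. All 13 of 13 tested genes of a reactive astrocyte list were at least 1.5-fold higher than in sham in both comparisons, beside 11.9% of all genes tested with TBI+PBS and 18.4% with TBI+IL-25. Testing required at least 100 UMIs over both libraries, and only Gfap, Vim, Cd44 and S100a10 had that many in sham. Sham held 0 UMIs of Lcn2 and Steap4, 2 of S1pr3, 3 of Timp1, 8 of Cxcl10 and 14 of Hspb1. Once tested, these could only come out higher, so the count was partly fixed in advance. Of the 14 astrocyte markers, none was 1.5-fold lower in TBI+PBS than in sham and 3 were in TBI+IL-25 (Aldoc, Ntsr2 and Gpr37l1), beside 12.6% and 33.7% of all genes tested. The same 14 genes named the clusters astrocyte-like, so these counts cannot show whether astrocytes lost them. Immediate early genes, which respond to stimulation and to tissue dissociation, were higher in 11 of 16 in TBI+PBS, where 1 was lower (Fosb), and in 14 of 16 in TBI+IL-25, where 0 were lower. The shares of all genes are those just given. Fosl2, with 10 UMIs in sham, could likewise only come out higher. The part of immediate early genes in the results below was not tested. The 10 microglia markers summed to 1549 CPM in the astrocyte-like cells of sham, 1290 with TBI+PBS and 787 with TBI+IL-25.

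Homeostatic genes of the same cells did not move as a block. Between TBI+PBS and sham, 1 of the 8 was at least 1.5-fold lower (Gja1) and 1 at least 1.5-fold higher (Kcnj10). Among all 12876 genes with at least 100 UMIs over both libraries, 12.6% were lower and 11.9% higher by that fold, so the count for the 8 genes was close to the background. Between TBI+IL-25 and sham, 3 of 8 were lower (Glul, Mlc1 and Gjb6) and 0 higher, beside 33.7% and 18.4% of 12691 genes. Between TBI+IL-25 and TBI+PBS, 3 of 8 were lower (Kcnj10, Mlc1 and Gjb6) and 0 higher, beside 23.7% and 8.56% of 12928 genes. The median log2 ratio of the 8 genes was -0.12, -0.26 and -0.22 in the 3 comparisons, beside -0.04, -0.22 and -0.18 over all genes tested. Median-of-ratios size factors put the typical gene at a log2 ratio of -0.04, -0.19 and -0.14, so ratios of TBI+IL-25 are to be read relative to those shifts. With those factors, 26.3% of genes were lower and 23.9% higher in TBI+IL-25 than in sham, and 17.2% and 12.6% against TBI+PBS. Slc1a2 (1.60) and Aqp4 (1.67) were then past 1.5-fold higher than in sham in TBI+IL-25, and Mlc1 (0.732) was no longer past it. The 8 genes were well counted, and among genes with at least 2000 UMIs the lower and higher shares were 5.07% and 13.4% in TBI+PBS and 17.8% and 26.2% in TBI+IL-25, each against sham.

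**Figure D1:**
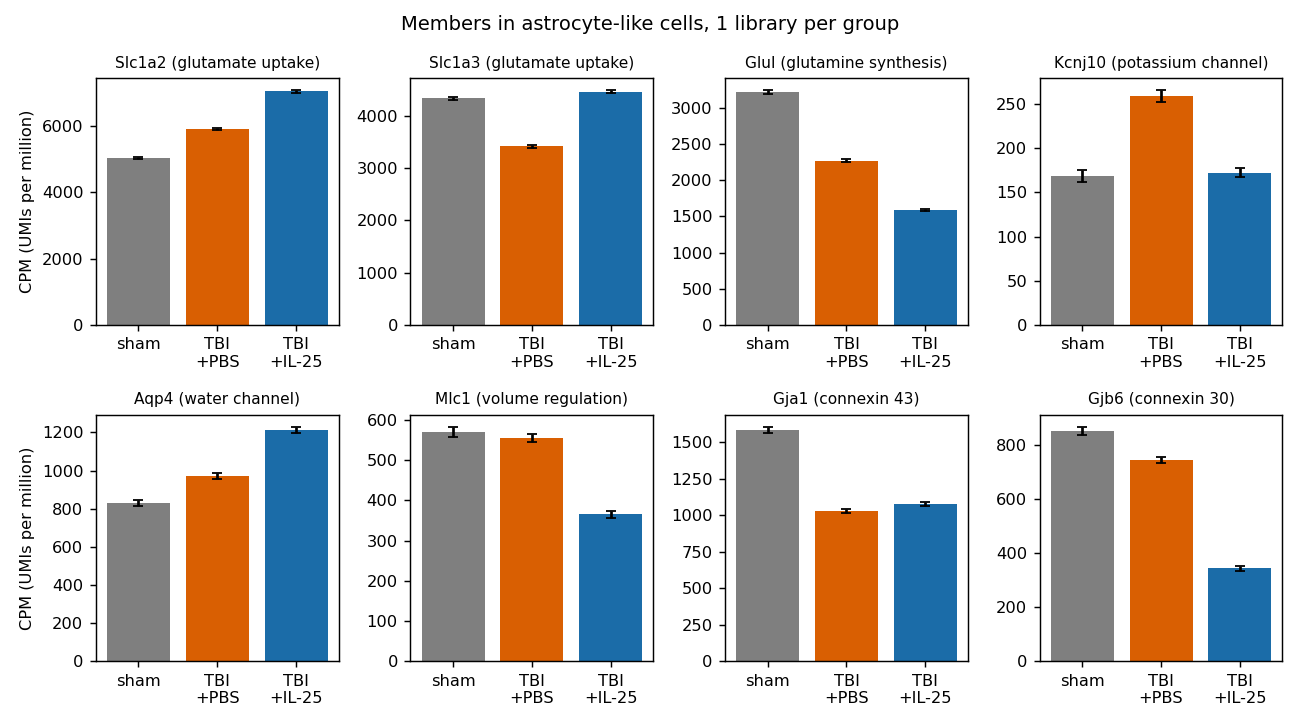
Level of each gene in astrocyte-like cells by library, as CPM with its 95% Poisson interval (1 library per group, each vertical axis starting at 0). Glul runs from 3222 in sham to 1593 in TBI+IL-25, Slc1a2 and Aqp4 run the other way, and Kcnj10 is highest in TBI+PBS.

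The glutamate transporters and the enzyme that follows them took different directions. Slc1a2 stood at 5045 CPM in sham, 5911 with TBI+PBS and 7050 with TBI+IL-25. It was thus highest in TBI+IL-25, with a ratio to sham of 1.17 (1.16 to 1.18) in TBI+PBS and 1.40 (1.39 to 1.41) in TBI+IL-25. Slc1a3 stood at 4338, 3419 and 4469 CPM. Its ratio to sham over all astrocyte-like cells was 0.788 (0.780 to 0.797) in TBI+PBS and 1.03 (1.02 to 1.04) in TBI+IL-25, so that TBI+PBS was the low library. Within single clusters Slc1a3 lay on both sides of sham, as given below. Glul stood at 3222, 2275 and 1593 CPM, with sham highest. Its ratio to sham was 0.706 (0.697 to 0.715) in TBI+PBS and 0.494 (0.488 to 0.501) in TBI+IL-25.

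Other genes of glutamate and glutamine handling were mostly within 1.5-fold. Of 19 listed genes 17 were tested. In TBI+PBS 1 was lower and 5 were higher than in sham, beside 12.6% and 11.9% of all genes. The lower one was Slc7a11, the cystine-glutamate exchanger, at 530 CPM in sham and 300 in TBI+PBS. The amino acid carrier Slc38a2 was the highest by ratio, at 26.2 CPM in sham, 179 with TBI+PBS and 314 with TBI+IL-25. The glutamate receptor Grm5 stood at 9.36, 28.9 and 8.76 CPM and was high in TBI+PBS only. Glud1, which deaminates glutamate, had a ratio to sham of 1.01 with TBI+PBS and 0.756 with TBI+IL-25. In TBI+IL-25, 3 of the 17 were lower (Slc38a3, Slc6a9 and Got1) and 3 higher, beside 33.7% and 18.4% of all genes. Slc38a3, which exports glutamine, stood at 234 CPM in sham, 227 with TBI+PBS and 131 with TBI+IL-25.

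Over all astrocyte-like cells, the potassium channel gene was higher in TBI+PBS than in either of the other libraries, while in the clusters filled by every library both injured libraries stood at like levels (305 and 302 CPM). Kcnj10 stood at 169 CPM in sham, 259 with TBI+PBS and 172 with TBI+IL-25. TBI+PBS was the high library, with a ratio to sham of 1.54 (1.47 to 1.61), while that of TBI+IL-25 was 1.02 (0.969 to 1.07). The ratio of TBI+IL-25 to sham ranged from 0.970 to 1.79 over 16 other settings and was past 1.5-fold in the 2 limited to clusters with at least 100 cells of every library (1.79 and 1.63), where both injured libraries were above sham. Kcnj16, whose product pairs with Kir4.1, had ratios to sham of 1.54 and 1.56. Of 19 further potassium genes 17 were tested in TBI+PBS against sham. Of these, 2 were lower and 5 higher, beside 12.6% and 11.9% of all genes. Both lower genes, Kcnk2 and Kcnk10, encode potassium leak channels. Kcnk2 stood at 116, 41.4 and 29.4 CPM, so both injured libraries were low. In TBI+IL-25, 3 of 18 were lower and 6 higher, beside 33.7% and 18.4% of all genes. Kcnj2, among the 6, had 9 UMIs in sham and once tested could only come out higher. Of this list 3 genes were also astrocyte markers.

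Water channel and volume genes separated from each other. Aqp4 stood at 829 CPM in sham, 971 with TBI+PBS and 1214 with TBI+IL-25. Its ratio to sham was 1.17 (1.15 to 1.20) with TBI+PBS and 1.46 with TBI+IL-25, with a lower bound of 1.43. Mlc1 stood at 569, 554 and 365 CPM, so that TBI+IL-25 was the low library. Its ratio to sham was 0.973 (0.946 to 1.00) in TBI+PBS and 0.640 (0.621 to 0.660) in TBI+IL-25. Hepacam, the adhesion protein that partners Mlc1, had ratios of 1.03 and 1.16.

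The wider list of water and endfoot genes held more lower than higher genes. In TBI+PBS 7 of 14 tested were lower than in sham and 1 was higher, beside 12.6% and 11.9% of all genes. The higher gene was Lrrc8a, a subunit of the volume-regulated anion channel (ratio 1.57). The 7 were Clcn2, Dtna, Dmd, Sntb1, Aqp9, Aqp11 and Lama2. In TBI+IL-25 9 of 14 were lower and 0 higher, beside 33.7% and 18.4% of all genes. The dystrophin complex anchors Aqp4 at the endfoot membrane. Its members Dtna and Dmd had ratios to sham of 0.661 and 0.657 in TBI+PBS and 0.380 and 0.353 in TBI+IL-25. Dag1, which encodes dystroglycan, had ratios of 0.883 and 1.07. The list's median log2 ratio was -0.43 with TBI+PBS and -0.99 with TBI+IL-25. The corresponding medians over all genes are given above.

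Both connexins were lower in the injured libraries over all astrocyte-like cells, by different amounts, although Gjb6 in TBI+PBS was above sham in both settings limited to clusters filled in every library (1.21 and 1.07). Gja1 stood at 1586 CPM in sham, 1027 with TBI+PBS and 1078 with TBI+IL-25. Its ratio to sham was 0.648 (0.636 to 0.660) in TBI+PBS and 0.680 (0.667 to 0.692) in TBI+IL-25, with both injured libraries low. Gjb6 stood at 852, 745 and 344 CPM. Its ratio to sham was 0.875 (0.854 to 0.895) in TBI+PBS and 0.404 (0.392 to 0.416) in TBI+IL-25, so that TBI+IL-25 alone was far from sham. Only 2 of 10 other connexin and pannexin genes had enough UMIs to be tested, and neither was past 1.5-fold in TBI+PBS. Gjb2 had ratios to sham of 0.870 and 1.26, and Gjc3 of 0.995 and 0.218, the latter from 42 UMIs in TBI+IL-25.

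The 16 other ways of scaling, filtering and grouping cells gave a range for each ratio. In TBI+PBS, Gja1 ranged from 0.555 to 0.925 and was past 1.5-fold in 11 of the 16. It was not past that fold with cells weighted equally (0.693), without cells holding 5 or more microglia marker UMIs (0.684), in Agt-positive cells (0.733) and in both settings limited to clusters filled in every library (0.925 and 0.837). Kcnj10 ranged from 1.41 to 1.83 and was past 1.5-fold in 14. Glul and Gjb6 in TBI+IL-25 were lower by that fold in all 16, with ratios to sham of 0.419 to 0.637 and 0.392 to 0.632. Mlc1 in TBI+IL-25 was so in 13 of 16.

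**Figure D2:**
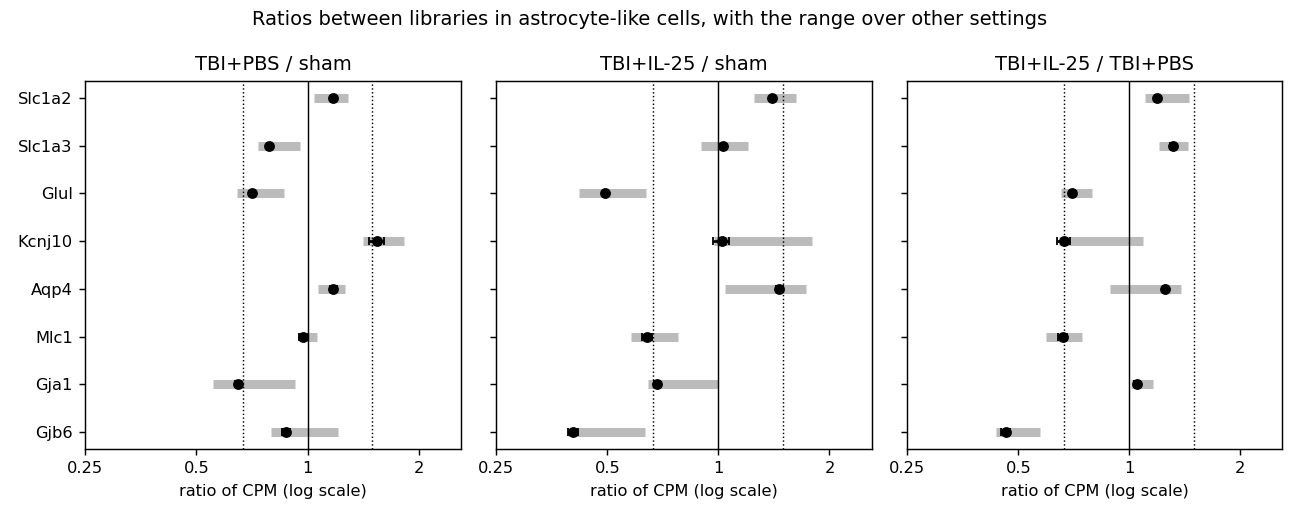
Ratio of CPM between libraries in astrocyte-like cells (points, with 95% intervals), the range over 16 other settings (grey bars) and 1.5-fold in either direction (dotted lines), on a log axis. The grey bars of Glul and Gjb6 lie wholly below the 1.5-fold line in TBI+IL-25 against sham, while that of Gja1 in TBI+PBS against sham crosses it.

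The injured libraries held astrocyte-like clusters that were nearly absent from sham, and Gja1 summed over clusters was low mainly there. Clusters 1, 5, 6 and 12 had at least 100 cells of every library and took in 99.9% of sham astrocyte-like cells, 59.0% of those with TBI+PBS and 49.2% with TBI+IL-25. Clusters 3, 9 and 10 held 3 cells from sham, 1855 from TBI+PBS and 3396 from TBI+IL-25. Cluster 9 was mostly TBI+PBS (1140 of 1265 cells) and cluster 3 mostly TBI+IL-25 (2684 of 2885), so either may reflect its library. Cluster 10 was led by Tm4sf1, Ptx3, Lcn2, Serpina3n and Gfap, and held 515 and 588 cells of the injured libraries. Fos stood at 1078 CPM in clusters 3, 9 and 10 of TBI+PBS, against 278 in its other 4 clusters.

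Summed over clusters, both connexins were lower in clusters 3, 9 and 10 than in the other 4, but single clusters did not all follow. Gjb6 in cluster 12 (369 CPM in TBI+PBS, 203 in TBI+IL-25) was below clusters 9 (596 and 373) and 10 (497 and 339). Gja1 in cluster 6 of TBI+IL-25 (708) was below clusters 3, 9 and 10 (836, 1142 and 767). In TBI+PBS, Gja1 was lower in each of clusters 3, 9 and 10 (at most 784) than in any of the other 4 (at least 834). In TBI+PBS, Gja1 stood at 1465 CPM in the 4 clusters filled by every library and at 708 in clusters 3, 9 and 10, beside 1585 in the same 4 clusters of sham. Gjb6 stood at 1034 and 535 CPM, beside 853 in sham. In TBI+IL-25, Gja1 stood at 1577 and 837 CPM, and Gjb6 at 539 and 251. Pooled over these 4 clusters, the Gja1 level of either injured library was thus near that of sham. Single clusters lay on both sides, with ratios to sham from 0.583 to 1.04 in TBI+PBS and from 0.495 to 1.28 in TBI+IL-25. Glul was at 2591 and 2045 CPM in TBI+PBS and at 2051 and 1373 in TBI+IL-25, beside 3222 in sham, and so was lower than sham in both pooled sets. Within single clusters, Glul in TBI+PBS lay on both sides of sham, as given below. Kcnj10 was at 305 and 226 CPM in TBI+PBS and at 302 and 109 in TBI+IL-25, beside 169 in sham. Its class ratio of 1.02 in TBI+IL-25 therefore joined a higher and a lower level. The pooled levels also depend on the mix of clusters, and the part of that mix was not tested. Cluster 5 held 46.7% of astrocyte-like cells in sham and 10.4% in each injured library. In sham, Glul stood at 3702 CPM in cluster 5 and 1860 in cluster 1, and Kcnj10 at 121 and 321. Aqp4 in TBI+IL-25 was at 865 and 1382 CPM, beside 828 in sham, and its higher class level lay mainly in clusters 3, 9 and 10. Of the single clusters filled by every library, only cluster 12 was past 1.5-fold higher for Aqp4 in TBI+IL-25 (ratio to sham 1.65).

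Ratios within single clusters filled by every library were as follows. Slc1a2 was higher than in sham in 4 of 4 clusters of TBI+PBS (1.05 to 1.48) and likewise of TBI+IL-25 (1.47 to 1.76). Slc1a3 was below sham in 2 of 4 clusters of TBI+PBS (0.876 to 1.07) and in 1 of 4 of TBI+IL-25 (0.928 to 1.56). Kcnj10 was above sham in all 4 clusters of TBI+PBS, from 1.22 to 2.07, and ranged from 1.00 to 2.56 in TBI+IL-25. TBI+IL-25 was above TBI+PBS in clusters 1, 5 and 12 (1.21, 1.24 and 1.12) and below it in cluster 6 (0.665). Glul in TBI+PBS was below sham in 2 of 4, from 0.657 in cluster 6 to 1.11 in cluster 12. In TBI+IL-25, Glul (0.381 to 0.946), Mlc1 (0.332 to 0.909) and Gjb6 (0.287 to 0.745) were below sham in 4 of 4. Each was lower by 1.5-fold or more in 2 of the 4. Cluster 6, which held the lowest Glul and Gja1 ratios in both comparisons and the lowest Mlc1 and Gjb6 ratios in TBI+IL-25, was shallow, with a median depth of 0.194 of its libraries' own medians. Leaving it out moved no class ratio of the 8 genes by over 1.5 times.

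**Figure D3:**
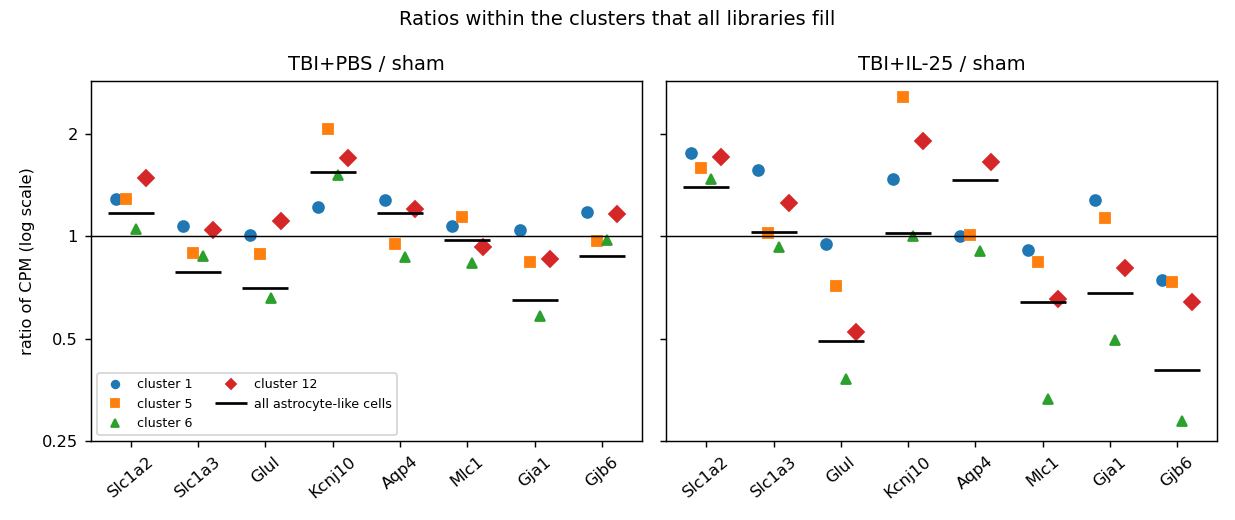
Ratio of CPM to sham within the 4 astrocyte-like clusters that hold at least 100 cells of every library (symbols) and over all astrocyte-like cells (black bars), on a log axis. In TBI+PBS the clusters' Gja1 ratios run from 0.583 to 1.04 with 3 of 4 above the class ratio of 0.648, and in TBI+IL-25 all 4 Gjb6 ratios lie under 1.

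Astrocytes also differ by region. Cluster 1 was led by Agt and Slc6a11, and Agt marks astrocytes outside the telencephalon. Agt itself stood at 744 CPM in sham, 743 with TBI+PBS and 438 with TBI+IL-25. In Agt-positive cells the ratio of TBI+PBS to sham was 0.733 for Gja1, 0.778 for Glul and 1.41 for Kcnj10. In cells without an Agt UMI these ratios were 0.555, 0.643 and 1.83. Gjb6 in TBI+IL-25 had ratios to sham of 0.447 and 0.403 in the 2 kinds of cell. All of these genes kept their side of 1 in both kinds of cell. Within cluster 1 itself, the ratios of TBI+PBS to sham were 1.04 for Gja1, 1.01 for Glul and 1.22 for Kcnj10. That of Gjb6 in TBI+IL-25 was 0.745 there. Agt stood at 188 CPM in cluster 5 of sham and at 396 in that of TBI+PBS, so Agt-positive cells need not be the same region in each library.

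Within each injured library, the genes were also read against the summed level of the reactive astrocyte list. Cluster 1 was set aside, because Agt went with that level, from 1783 CPM in the low to 137 in the high bin of all TBI+PBS astrocyte-like cells. The other astrocyte-like cells were divided into 3 bins of equal size, of about 1108 cells with TBI+PBS and 1914 with TBI+IL-25. A bin is a range of a score and not a cell type. Gfap was 13.5-fold higher in the high than in the low bin of TBI+PBS and 4.39-fold in TBI+IL-25. Fos was 1.72-fold and 1.70-fold higher, so it moved with the bins.

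Glul, Kcnj10, Gja1 and Gjb6 had the 4 lowest ratios of the high to the low bin in both libraries. In TBI+PBS, Glul stood at 3411, 2408 and 1452 CPM from the low to the high bin, a ratio of 0.426 (0.415 to 0.437). In TBI+IL-25 it stood at 2036, 1358 and 1424 CPM, a ratio of 0.699. Gja1 had ratios of 0.498 and 0.489 in the 2 libraries, and Gjb6 of 0.537 and 0.453. Kcnj10 stood at 256, 253 and 165 CPM in TBI+PBS and at 238, 122 and 76.4 CPM in TBI+IL-25. Its high bin was thus at 0.644 (0.592 to 0.702) and 0.321 (0.290 to 0.354) of the low one.

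Aqp4 went the other way. It stood at 573, 849 and 1257 CPM in TBI+PBS, a ratio of 2.19 (2.10 to 2.29), and at 850, 1092 and 1694 CPM in TBI+IL-25, a ratio of 1.99 (1.93 to 2.06). Without cluster 1, the uptake carriers were lower in the high bin by less, and Mlc1 went either way. Slc1a2 had ratios of 0.858 and 0.768, Slc1a3 of 0.881 and 0.966, and Mlc1 of 1.13 and 0.873. Over all astrocyte-like cells, cluster 1 included, Slc1a2 had ratios of 1.31 and 0.928 and Slc1a3 of 1.09 and 1.01. The direction of both carriers in TBI+PBS thus depended on leaving cluster 1 out. The low and high bins had median depths of 4683 and 5283 UMIs in TBI+PBS and of 2855 and 3636 in TBI+IL-25.

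**Figure D4:**
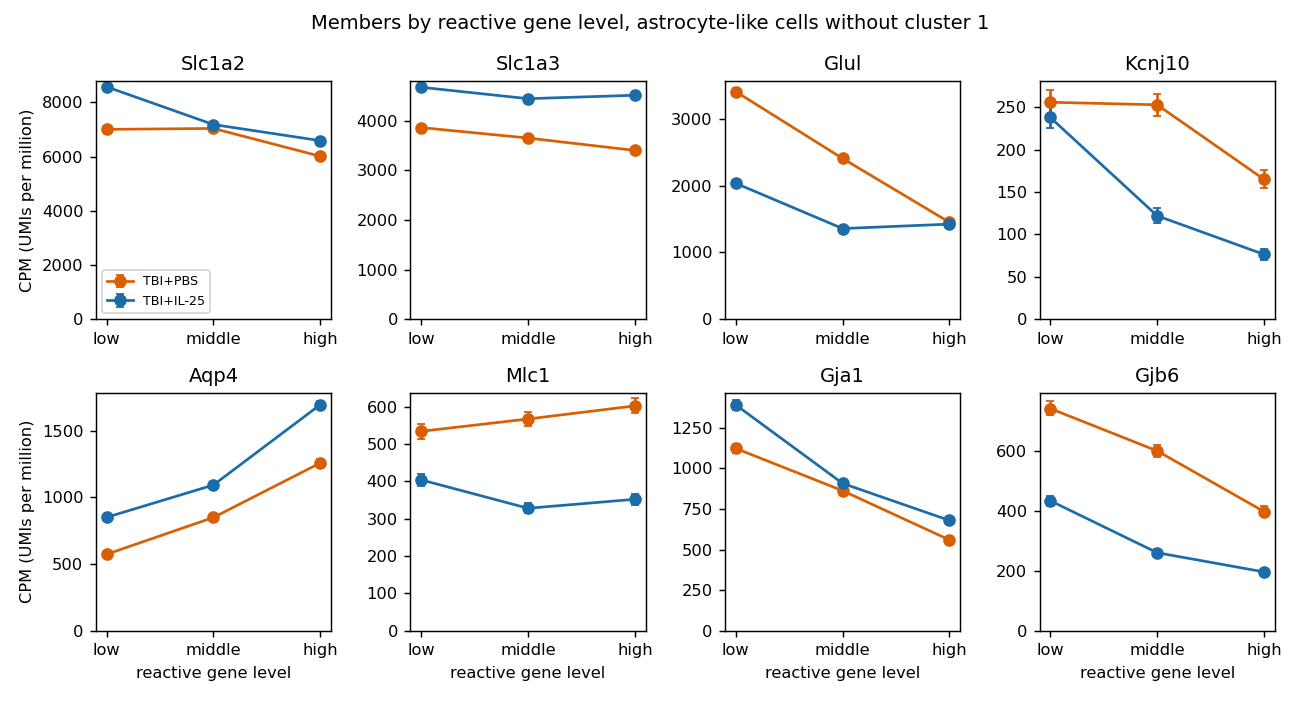
Level of each gene (CPM, 95% Poisson intervals) in 3 bins of the summed reactive gene level, in astrocyte-like cells of each injured library without cluster 1. Glul, Kcnj10, Gja1 and Gjb6 end lower in the high bin in both libraries and Aqp4 ends higher.

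The promoters of the 4 genes with the lowest ratios of high to low bin in both libraries are shown. They are the 250 bases before the RefSeq start of each gene (build GRCm38.p6), written 5′ to 3′ along the gene's strand, with motif matches in capitals.
Glul (chr1:153899679-153899928, plus strand): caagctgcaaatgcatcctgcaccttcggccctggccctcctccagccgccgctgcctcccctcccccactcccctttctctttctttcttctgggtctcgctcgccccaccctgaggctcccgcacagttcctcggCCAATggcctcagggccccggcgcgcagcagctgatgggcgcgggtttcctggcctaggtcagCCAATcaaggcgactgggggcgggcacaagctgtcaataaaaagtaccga
Kcnj10 (chr1:172340960-172341209, plus strand): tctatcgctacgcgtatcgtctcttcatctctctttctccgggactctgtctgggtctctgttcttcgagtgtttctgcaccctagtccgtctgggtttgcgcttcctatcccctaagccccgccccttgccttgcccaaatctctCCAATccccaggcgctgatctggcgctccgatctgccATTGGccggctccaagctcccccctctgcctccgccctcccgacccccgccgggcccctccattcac
Gja1 (chr10:56377050-56377299, plus strand): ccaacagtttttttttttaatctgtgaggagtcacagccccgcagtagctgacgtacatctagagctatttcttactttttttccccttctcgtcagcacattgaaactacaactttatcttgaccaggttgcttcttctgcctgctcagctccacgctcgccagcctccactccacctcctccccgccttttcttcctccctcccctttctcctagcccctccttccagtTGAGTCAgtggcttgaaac
Gjb6 (chr14:57133612-57133861, minus strand): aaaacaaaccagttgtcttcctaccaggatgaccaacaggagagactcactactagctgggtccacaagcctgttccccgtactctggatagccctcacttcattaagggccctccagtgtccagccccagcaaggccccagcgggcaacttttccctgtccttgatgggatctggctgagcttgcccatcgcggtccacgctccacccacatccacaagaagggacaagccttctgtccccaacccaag
In all, 7 of the 8 genes were searched on both strands for 3 motifs, which were TATAAA as the TATA box, CCAAT as the site of the factor NF-Y, and TGANTCA as the AP-1 site bound by Fos and Jun proteins. Over 32851 promoters of this length, these were present in 12.4%, 33.8% and 6.75%. Gja1 held an AP-1 match from 19 to 13 bases before its start. Glul and Kcnj10 held 2 CCAAT matches each. Slc1a3 and Mlc1, whose promoters are not shown, also held CCAAT matches, and Slc1a3 a TATA box match. Gjb6 held none of the 3 in this window, and its promoter thus shared no match with that of Gja1. A match describes letters and is no evidence of binding.

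Detection per cell was compared after thinning every astrocyte-like cell to 1000 UMIs, which left out 441 cells from sham, 654 from TBI+PBS and 1234 from TBI+IL-25. Glul was then detected in 89.7% of sham cells (88.5% to 90.8%), 82.7% of TBI+PBS cells and 73.6% of TBI+IL-25 cells (72.4% to 74.8%). Without thinning these shares were 97.7%, 95.3% and 90.5%. Gja1 was detected in 75.5%, 60.9% and 62.7% of thinned cells, and Gjb6 in 56.9%, 51.6% and 29.1%. Kcnj10 was detected in 15.7%, 22.1% and 16.5%, and Slc1a2 in 94.0%, 96.1% and 98.3%. Thinned microglia-like cells held a Gja1 UMI in 1.49%, 0.927% and 0.894% and a Kcnj10 UMI in 0.367%, 0.529% and 0.987%. The astrocyte shares of Gja1 and Kcnj10 were far above those of microglia-like cells. The same did not hold for Glul, whose share in thinned microglia-like cells ran from 36.1% in TBI+IL-25 to 69.7% in sham. A thinned cell held a mean of 5.19 of the 8 genes in sham, 4.99 with TBI+PBS and 4.66 with TBI+IL-25.

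Outside astrocytes, the levels depended on the cell class. In microglia-like cells, Aqp4 stood at 0.837%, 0.680% and 1.12% of its level in astrocyte-like cells of the same library, and Gja1 at 0.875%, 0.771% and 1.02%. Glul was the exception, at 43.4%, 25.7% and 32.2%. The part of free RNA in these levels was not tested. Microglial Glul stood at 1399 CPM in sham, 585 with TBI+PBS and 513 with TBI+IL-25, with sham highest as in astrocytes. It was lower in TBI+PBS than in sham within each of the 3 microglia-like clusters filled by every library, at ratios of 0.624, 0.561 and 0.541. Microglial Slc1a3 stood at 334, 158 and 171 CPM, 7.69%, 4.62% and 3.82% of the astrocyte level. Slc1a2 in microglia-like cells stood at 59.6, 62.0 and 142 CPM, 1.18%, 1.05% and 2.01% of the astrocyte level.

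Oligodendrocyte-like cells, 45 in sham, 216 with TBI+PBS and 643 with TBI+IL-25, held Glul at 2645, 2120 and 1952 CPM and Kcnj10 at 161, 192 and 257 CPM. These were 82.1%, 93.2% and 123% of the astrocyte level for Glul and 95.3%, 74.0% and 150% for Kcnj10. Aqp4 in the same cells was at most 3.15%. Ependymal-like cells, 15, 27 and 50 in number, held Mlc1 at 776, 698 and 635 CPM and Aqp4 at 498, 442 and 537 CPM. Fibroblast-like cells held Gjb6 at 365, 416 and 120 CPM, from only 7, 23 and 25 cells.

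**Figure D5:**
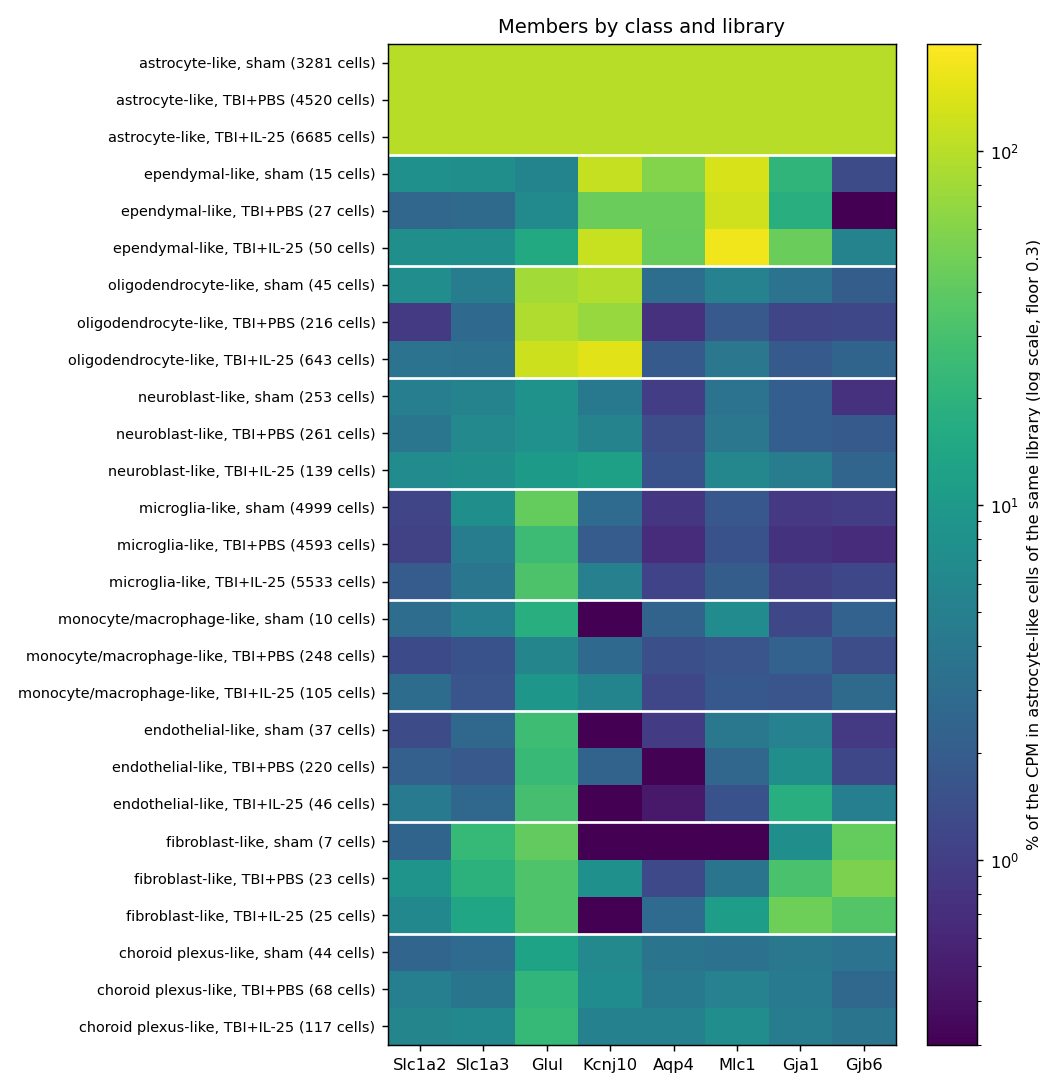
Level of each gene in 9 cell classes by library, as a percent of its CPM in astrocyte-like cells of the same library (colour, log scale; values under 0.3, zeros included, take the darkest colour). Glul stands out in oligodendrocyte-like and microglia-like cells, Kcnj10 in oligodendrocyte-like cells and Mlc1 in ependymal-like cells.

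The genes also differed in which other genes followed them. Over 18 combinations of cluster and library with at least 100 astrocyte-like cells, the Pearson correlation of log2(CPM + 1) was 0.81 between Slc1a2 and Slc1a3, 0.72 between Glul and Mlc1, 0.60 between Gja1 and Gjb6, and -0.74 between Glul and Aqp4. These points share libraries and depth, and the correlations are descriptions only. Among 3649 genes with a mean of at least 50 CPM, the closest to Slc1a2 was Grm3 (0.942), which was also closest to Slc1a3 (0.840). Those closest to the others were Il18 for Glul (0.939), Adora1 for Kcnj10 (0.879) and Susd6 for Aqp4 (0.876). Lamp1 was closest to Mlc1 (0.966), Trp53bp2 to Gja1 (0.961) and Chn1 to Gjb6 (0.872).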

How the data were processed

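Single-cell RNA of 3 libraries (sham, TBI+PBS and TBI+IL-25) was read from the deposited matrices, which hold the UMI counts of every gene and barcode, deposited by the authors without scaling. Per the file headers, Cell Ranger 7.2.0 made the TBI+IL-25 matrix and Cell Ranger 7.1.0 the other two. Seurat 4.4.0, bcl2fastq 5.0.1 and Cell Ranger 7.2.0 are listed in the submitters' processing notes, with GRCm39 as the build. How barcodes were selected is not given in the sources used here.

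The rest was computed here. Cells were dropped below 500 UMIs, below 300 genes or above 20% mitochondrial UMIs, and Scrublet (scanpy 1.11.5, score over 0.2) removed 211, 301 and 635 doublets. Cells were clustered jointly without batch integration, on 2000 variable genes without the 8 genes, with 30 principal components, 15 neighbours and Leiden resolution 1 (leidenalg 0.10.2). Clusters were named from 19 marker lists. A marker was present where it was seen in 20% or more of a cluster's cells and its level reached 2 times the median of all clusters, and fewer than 3 markers left a cluster unnamed. Levels are CPM of the UMIs added up over the cells of a class in a library, with exact Poisson intervals for levels, exact conditional binomial intervals for ratios (SciPy 1.17.1) and Clopper-Pearson intervals for shares of cells. A gene counted as lower or higher past 1.5-fold, given at least 100 UMIs over both libraries. The functions were tested on simulated data. The other genes named are the 2 highest and 2 lowest of each list by the ratio of TBI+PBS to sham, those needed beside one of the 8, and the closest by correlation, except some that are not reported here. The 8 genes, the lists and the thresholds were chosen with earlier results of these data known. Promoters come from RefSeq on GRCm38.p6, and no coordinate was converted between builds.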

Additional observations from a re-analysis of the deposited data

How the results depend on the processing

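With 1 library per group no replicate could be left out, and no difference has a replicate check. No paired analysis was possible because each group had 1 library. Of the 24 ratios of the 8 genes, 6 were on the other side of 1 in some setting. The 5 that were within 1.5-fold were Mlc1 and Gjb6 in TBI+PBS against sham, Slc1a3 and Kcnj10 in TBI+IL-25 against sham, and Aqp4 in TBI+IL-25 against TBI+PBS. The other was Kcnj10 in TBI+IL-25 against TBI+PBS, which was lower at 0.663 and was 1.09 with clusters filled in every library weighted equally (added after seeing the data), and the cause was not tested. Adding unnamed shallow clusters gave no value, because no cluster was left unnamed. The 3 settings on clusters and depth added later, and the thresholds, were chosen after seeing the data.

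Between TBI+PBS and sham, the number of the 8 genes past 1.5-fold lower was 1, and it was 0 in Agt-positive cells, with cells weighted equally, without cells holding 5 or more microglia marker UMIs and in both settings limited to clusters filled in every library. It was 2 in Agt-zero cells. The number higher was 1, and it was 0 in Agt-positive cells and with clusters filled in every library weighted equally. Between TBI+IL-25 and sham, the number higher was 0, and it was 1 in Agt-positive cells, in Agt-zero cells, with cells weighted equally, in cells with at least 2000 UMIs, with a total free of mitochondrial, ribosomal and haemoglobin genes and in clusters filled in every library. It was 2 with those clusters weighted equally and with median-of-ratios size factors. The number lower there was 3, with Gja1 (0.643) added in Agt-zero cells and Mlc1 (0.708) no longer past the fold in Agt-positive cells. Between TBI+IL-25 and TBI+PBS, the number lower was 3, and it was 1 in Agt-positive cells, with median-of-ratios size factors, with the reduced total and in clusters filled in every library. In Agt-zero cells Glul (0.653) was lower by that fold besides the 3. The cause was not tested.

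The shares over all genes followed the minimum and the fold. At 2-fold, 3.30% of genes were lower and 5.63% higher in TBI+PBS than in sham, 18.8% and 10.5% in TBI+IL-25 than in sham, and 8.51% and 3.16% in TBI+IL-25 than in TBI+PBS. With a minimum of 2000 UMIs the lower shares were 5.07%, 17.8% and 10.9%. With no minimum, 23.9% were lower and 24.1% higher in TBI+PBS than in sham, and the higher shares were 28.4% and 21.5% for TBI+IL-25 against sham and against TBI+PBS. Over the 4 wider lists at 2-fold, 2 genes in place of 10 were lower and 5 in place of 11 higher in TBI+PBS, 9 in place of 16 were lower in TBI+IL-25 than in sham, and 3 in place of 12 lower than in TBI+PBS. The last count was 20 with no minimum, and median-of-ratios size factors gave 6 in place of 3 higher genes for TBI+IL-25 against TBI+PBS.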
